A study of Homo sapiens with 24 samples.

Results

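All chemokine and chemokine receptor genes named in the deposited RNA-seq tables as CXCL, CCL, CX3CL, XCL, CXCR, CCR, CX3CR, XCR or ACKR with a number were taken, which gave 66 of 57820 genes. They were 29 CC ligands, 13 CXC ligands, 3 XC and CX3C ligands, 18 signalling receptors and 3 atypical receptors. The pseudogenes CXCR2P1, CXCL1P and CCR12P were left out. Genes that the tables list under older or other names, among them IL8 (the CXCL8 gene), DARC (ACKR1) and CCRL2, fell outside the rule and were kept as a separate list.

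Chemokines are small secreted proteins that bind G protein-coupled receptors on leukocytes and other cells and direct their migration. They are grouped by the spacing of their first cysteines into CXC, CC, XC and CX3C ligands, and each group is read by receptors of the matching name. Atypical receptors bind the same ligands and take them up without activating G proteins, so that they lower the amount of ligand outside the cell. Many inflammatory chemokine genes lie in tandem clusters and are transcribed after NF-κB is activated.

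The genes were measured in 24 libraries of human U2OS osteosarcoma cells, 3 biological replicates in each of 8 groups. The AID-DIvA line is U2OS with an integrated vector for the AsiSI restriction enzyme, whose activation by 4-hydroxytamoxifen was not named for these libraries. Wild-type (WT) and ID3-knockout (ID3-KO) AID-DIvA cells were untreated, or were given the class I histone deacetylase inhibitor mocetinostat for 24 h and then fresh medium for 24 h (recovered). WT and ID3-KO U2OS cells were untreated or treated with mocetinostat, with no recovery named in their labels. The methods describe collection right after the 24 h of treatment for part of the samples, and the treated U2OS libraries were taken to be that stage. Cell line and stage coincide, so they cannot be told apart. The methods give no dose for these cultures, and whether each knockout line was 1 clone is not given in the sources used here. The treatment entries of the AID-DIvA samples state the reverse of their titles, and groups follow the titles.

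Levels are given as CPM, the read count relative to the TMM-scaled size of the library, over 24 libraries whose total counts lay between 37878751 and 76906266. ID3 transcripts were still counted in the knockout, at 33.2, 32.6 and 38.8 CPM in untreated ID3-KO AID-DIvA against 48.7, 51.8 and 52.3 CPM in WT, and at 32.1, 29.9 and 29.1 CPM in untreated ID3-KO U2OS against 79.7, 53.9 and 51.6 CPM in WT. The recovered AID-DIvA libraries had 103, 128 and 126 CPM in WT and 67.1, 61.5 and 66.6 CPM in ID3-KO, and the treated U2OS libraries 88.9, 78.3 and 77.9 and 40.6, 30.3 and 34.9 CPM. Both untreated knockouts lay below WT in every library, with log2 differences of -0.56 and -1.03, the latter -0.80 without WT replicate 1. The mesenchymal and bone matrix genes VIM, COL1A1 and SPARC were high in all groups, while COL1A2 and ALPL stayed low. Untreated WT U2OS replicate 1 stood apart from replicates 2 and 3, with a chi-square per gene of 91.1 and 103 against 4.32 between the other two, and values that move without it are given beside the comparisons that use it. Recovered AID-DIvA replicate 1 differed less, with 20.1 and 26.9 against 4.57 in ID3-KO and 13.5 and 17.1 against 2.79 in WT. Untreated ID3-KO AID-DIvA replicates 2 and 3 differed by 27.3.

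Markers of leukocytes, the main users of chemokines, were followed in the same libraries. The summed level of the 12 leukocyte markers was 4.1 to 4.89 CPM in untreated and 12.2 to 12.8 CPM in recovered WT AID-DIvA, and 2.5 to 2.92 against 8.44 to 9.87 CPM in ID3-KO AID-DIvA. In U2OS it went from 4.34 to 4.79 CPM to 9.81 to 10.3 CPM in WT and from 2.96 to 3.33 CPM to 6.41 to 8.03 CPM in ID3-KO. Of the 12, 3 rose and 1 fell in WT AID-DIvA, 3 rose in ID3-KO AID-DIvA and 4 rose in each of WT and ID3-KO U2OS, and CD3D, ITGAM and CSF1R rose in all 4. The numbers tested were 5, 5, 8 and 9, and of all genes tested 4.86%, 4.9%, 13.6% and 14.6% rose in the same order. Of 5 endothelial and epithelial markers 1, CDH5, rose in each comparison, and of 6 osteosarcoma line markers 1 fell in WT U2OS and 1 rose in ID3-KO U2OS. The part of these marker changes in the results on chemokines was not tested. In recovered WT AID-DIvA, CD3D reached 1.89 to 2.84 CPM, ITGAM 5.04 to 5.58 CPM and CSF1R 3.13 to 4.32 CPM. The other markers of the list, PTPRC among them, were lower than 1 CPM in every group, and CD3E and FCGR3A stayed near 0 CPM. In these bulk libraries a change in the number of cells that express a gene and a change in RNA per cell cannot be told apart.

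The reading strand was also examined, because the deposited counts take reads from either strand. Over all genes, between 93.9% and 94.8% of strand-assigned reads fell on the strand of the annotated gene. At 4 of the 29 members with more than 100 counts most reads fell on the other strand: CXCR6 (99.9% of strand-assigned reads), ACKR4 (99.1%), XCL2 (96.2%) and CCR10 (66.7%). CXCR6, the receptor of CXCL16, lies opposite FYCO1 and had 3 reads on its own strand over the 24 libraries. ACKR4 lies opposite ACAD11, and CCR10 opposite CNTNAP1. CCL5 (45.6%) and XCL1 (14.7%) were mixed, and 20 members had less than 3% of reads on the other strand. ACKR4 had 48 and XCL2 22 reads on their own strand, so that most of the 405 and 575 either-strand counts of these genes, and of the 2452 of CXCR6, do not come from it. For CCR10 the 2927 own-strand reads alone outnumber the 2356 either-strand counts, and the share of each strand in those counts is not known.

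**Figure D1:**
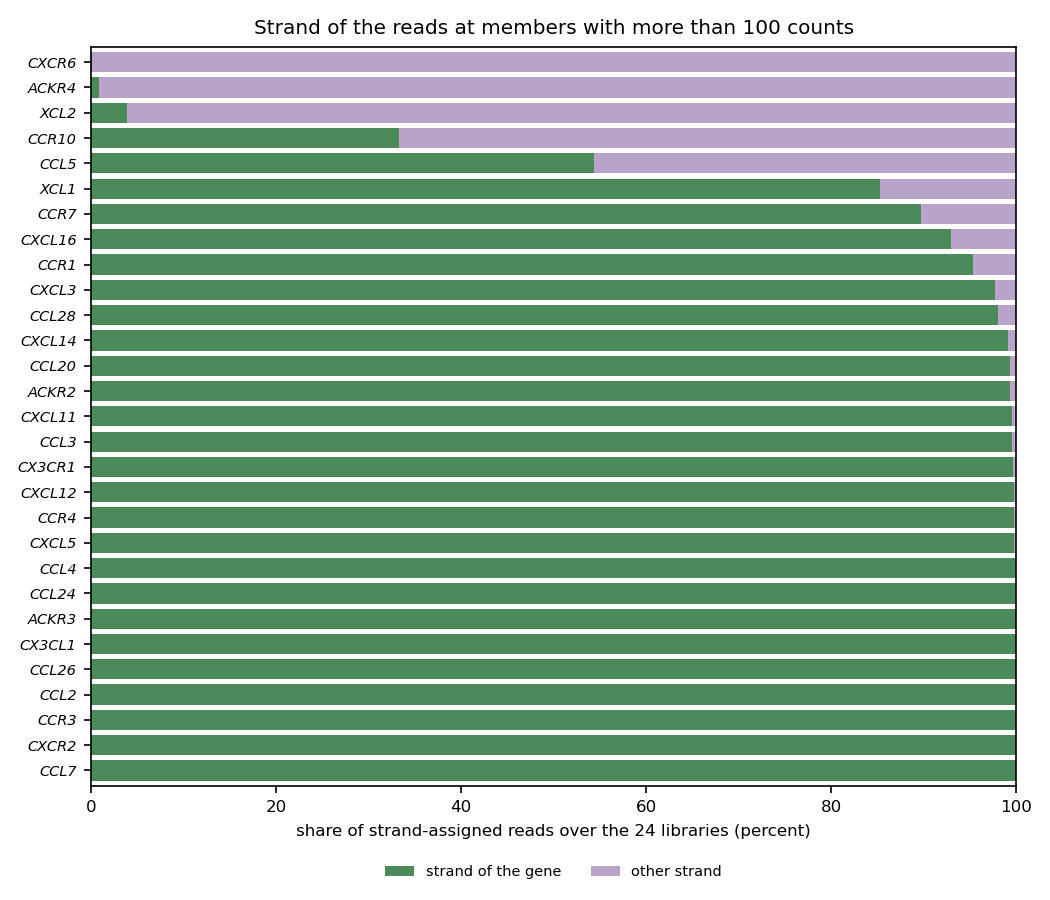
Share of strand-assigned reads on the strand of the gene (green) and on the other strand (violet), in percent over the 24 libraries, for the 29 members with more than 100 counts. CXCR6, ACKR4 and XCL2 are almost wholly violet, CCR10 is 66.7% violet, and CCL5 is mixed.

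Promoter sequences are shown for the CXC cluster on chromosome 4, whose genes share a sequence block but differed in level, for CCL20, the ligand with the strongest rise in CPM, and for CXCL14, which fell. RefSeq (GRCh38.p14) gave a promoter for 44 of the 66 members, not including CCL4 and ACKR3. Printed are the 150 bases before the transcript start, 5′ to 3′ on the strand of the gene, in lower case with matches to the 10-letter NF-κB consensus in capitals. In order they are chr4:73998678-73998827 (minus strand), chr4:74038690-74038839 (minus), chr4:73869243-73869392 (plus), chr4:74099196-74099345 (minus), chr2:227813692-227813841 (plus) and chr5:135578992-135579141 (minus), all GRCh38.p14, while the count tables use hg19.
CXCL5: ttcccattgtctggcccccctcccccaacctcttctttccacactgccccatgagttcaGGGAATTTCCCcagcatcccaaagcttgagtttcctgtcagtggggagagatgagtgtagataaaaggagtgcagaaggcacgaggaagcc
CXCL3: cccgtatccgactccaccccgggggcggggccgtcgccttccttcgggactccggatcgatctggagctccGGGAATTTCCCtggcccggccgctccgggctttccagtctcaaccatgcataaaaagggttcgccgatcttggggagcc
CXCL1: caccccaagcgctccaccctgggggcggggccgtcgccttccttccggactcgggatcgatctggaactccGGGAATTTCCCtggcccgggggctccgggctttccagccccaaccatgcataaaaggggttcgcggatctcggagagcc
CXCL2: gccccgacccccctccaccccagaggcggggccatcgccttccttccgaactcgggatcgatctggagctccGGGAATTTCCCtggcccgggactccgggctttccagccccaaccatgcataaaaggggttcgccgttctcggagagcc
CCL20: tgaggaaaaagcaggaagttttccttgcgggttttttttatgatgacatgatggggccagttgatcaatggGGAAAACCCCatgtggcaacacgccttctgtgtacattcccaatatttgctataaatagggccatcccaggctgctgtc
CXCL14: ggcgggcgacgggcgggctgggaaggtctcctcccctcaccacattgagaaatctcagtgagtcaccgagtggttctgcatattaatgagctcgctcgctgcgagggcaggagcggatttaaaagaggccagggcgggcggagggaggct
The same 11 bases, GGGAATTTCCC, which hold 2 overlapping matches, stood in the CXCL5, CXCL3, CXCL1 and CXCL2 promoters, and CCL20 held a different match. The consensus, searched on both strands of the 250 bases before the start, was present in 11 of the 44 member promoters and in 9.96% of the 35116 promoters of the table. CXCL14, and IL8 outside the rule, had no match to the consensus in this window. The IL8 window held tggaatttcc, which differs from the consensus at its first base only. A missing match therefore does not show that a promoter lacks an NF-κB site. CXCL1 and CXCL2 carry the shared block but had 3 counts each over all 24 libraries, and CXCL6, with 2 matches, had 6. CXCL11, which rose in U2OS, held a match, as did CCR3, called lower in WT U2OS, and the low members CCL1, CCL22 and CXCL10. The members CCL3, CCL7, CCL28, CCR1, CCR4, CXCR2 and CXCL12, each called higher in at least 1 treatment comparison, held none. The printed genes were chosen by level and response, and a relation of the match to the response was not tested.

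Of the 66 members, 17 reached a mean of 1 CPM in at least 1 group, 10 more stayed lower but passed the test in at least 1 comparison, and 39 did neither. Per kilobase of exon, the highest member in untreated WT AID-DIvA was ACKR3, the atypical receptor for CXCL12 and CXCL11, at a mean of 30.6 CPM per kb, ahead of CCL26 at 8.8 and CXCL14 at 4.92. In untreated WT U2OS, ACKR3 (30.1 CPM per kb) and CXCL14 (28.6) were close, and CCL26 followed at 14.2. In replicates 2 and 3 alone CXCL14 was ahead of ACKR3 per kb. There CXCL14 had 62.7 and 58.8 CPM on 1971 bases of exon, and ACKR3 64.9 and 62.6 CPM on 2258 bases. In treated WT U2OS, CCL20 led at 46.1 CPM per kb. The signalling receptors of these ligands had few counts: CXCR4, the signalling receptor of CXCL12, had 14 counts in 24 libraries and CCR6, the receptor of CCL20, had 18. CCR2, the receptor of CCL2, had 5 counts, and CX3CR1, the receptor of CX3CL1, had 306.

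The first question of the study was how WT and ID3-KO cells respond to mocetinostat, each against its own untreated cells. A gene was called at an adjusted p below 0.05 (edgeR quasi-likelihood test, Benjamini-Hochberg over all genes tested) and a log2 fold change beyond 1. In WT AID-DIvA after recovery 7 of the 66 members rose and 4 fell, with 22 tested, where 4.86% of all 20289 genes tested rose and 2.52% fell. In ID3-KO AID-DIvA 8 rose and 3 fell, with 21 tested and 4.9% and 2.56% of all genes. In WT U2OS 13 rose and 4 fell, with 29 tested and 13.6% and 5.06% of all genes. In ID3-KO U2OS 12 rose and 2 fell, with 24 tested and 14.6% and 5.77% of all genes. The median log2 fold change of the members tested was 0.46, 0.39, 0.74 and 0.94 in that order, against -0.00, -0.02, 0.01 and 0.00 over all genes. Low members pass the count filter mainly where a group is high, so these counts and medians describe the tested members only.

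CCL20, CCL4, CXCL5 and CXCL3 rose in all 4 treatment comparisons, and ACKR3 and CXCL14 fell in all 4. Altogether 17 members rose in at least 1 of them and 6 fell in at least 1, and CXCL12 did both. The shares of all genes called in at least 1 or in all 4 comparisons were not counted, so these counts have no baseline. The direction of the remaining calls depended on the line and stage.

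**Figure D2:**
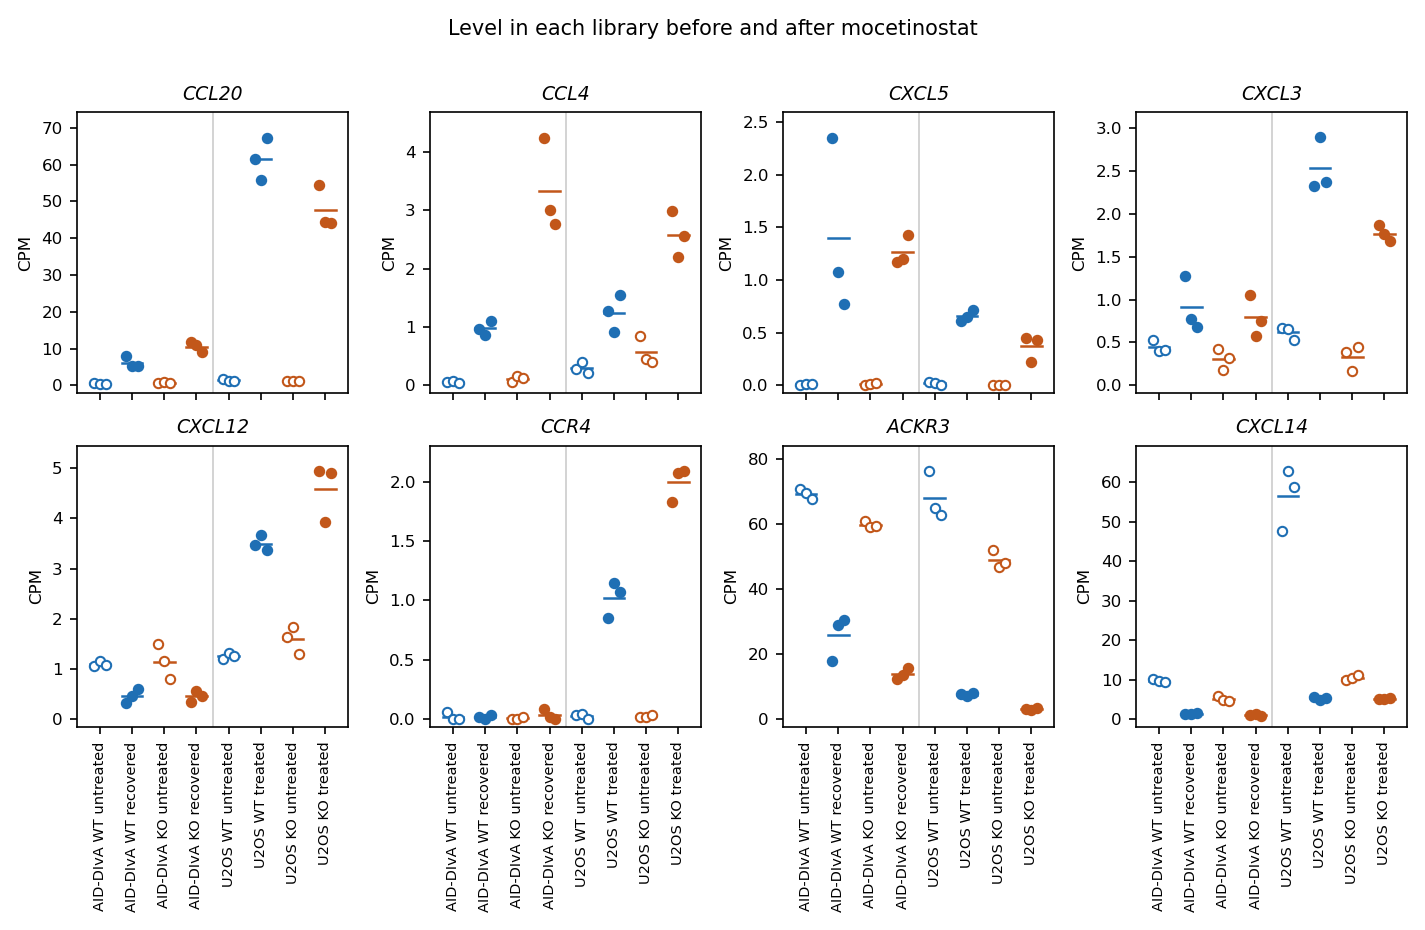
CPM in each library for 8 members; circles are the 3 libraries of a group, open for untreated and filled for mocetinostat, blue for WT and orange for ID3-KO, and bars are group means. AID-DIvA is left and U2OS right of the grey line; CCL20 reached 44.1 to 67.3 CPM in treated U2OS, while ACKR3 and CXCL14 fell in every pair of groups.

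Among the CXC ligands, CXCL5 (ENSG00000163735.6, chr4:74861359-74864496, hg19, minus strand), a neutrophil attractant read by CXCR2, was almost without counts in untreated cells. WT AID-DIvA had 0, 1 and 1 counts untreated and 124, 47 and 42 recovered, or 2.35, 1.07 and 0.776 CPM, a ratio of 120 with a 95% exact counting interval of 32.7 to 994. In ID3-KO AID-DIvA 0, 1 and 1 counts stood against 41, 79 and 65, or 1.17, 1.2 and 1.42 CPM, a ratio of 116 with an interval of 31.6 to 963. WT U2OS went from 2, 2 and 0 counts to 40, 33 and 54, or 0.608, 0.654 and 0.713 CPM. Untreated ID3-KO U2OS had 0 counts in all 3 libraries and treated cells 27, 12 and 29, or 0.453, 0.22 and 0.435 CPM, at least 21.1-fold higher against a floor of 3 counts over the group. The treated libraries lay above the untreated ones in all 4 comparisons, with an adjusted p between 4.93e-07 and 1.53e-04. The intervals cover counting error only.

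CXCL3 (ENSG00000163734.4, chr4:74902306-74904524, minus strand), a second CXCR2 ligand of the same cluster, was counted before treatment too. Its levels were 0.534, 0.398 and 0.414 CPM in untreated and 1.27, 0.775 and 0.684 CPM in recovered WT AID-DIvA, a log2 fold change of 1.06 (SE 0.26, adjusted p = 0.0045). In ID3-KO AID-DIvA they were 0.428, 0.181 and 0.32 CPM untreated and 1.05, 0.577 and 0.745 CPM recovered, a change of 1.32 (SE 0.33, adjusted p = 0.0101). The recovered libraries lay above the untreated ones in both genotypes. WT U2OS had 0.673, 0.657 and 0.526 CPM untreated and 2.33, 2.89 and 2.36 CPM treated, a change of 2.01 (SE 0.18, adjusted p = 7.29e-05). ID3-KO U2OS had 0.386, 0.167 and 0.443 CPM untreated and 1.86, 1.76 and 1.68 CPM treated, a change of 2.42 (SE 0.24, adjusted p = 4.70e-09). The groups did not overlap in U2OS either. The WT AID-DIvA value was 0.73 without recovered replicate 1, 0.98 without untreated replicate 2 and 1.0 without untreated replicate 3, and the ID3-KO value was 1.0 without untreated replicate 2, each short of the fold threshold before rounding.

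CXCL12 (ENSG00000107562.12, chr10:44793038-44881941, minus strand), a homeostatic chemokine of stromal cells, was the member that went both ways. After recovery it fell in WT AID-DIvA from 1.05, 1.16 and 1.08 to 0.322, 0.456 and 0.591 CPM, a log2 fold change of -1.24 (SE 0.22, adjusted p = 3.67e-04). ID3-KO AID-DIvA fell from 1.49, 1.15 and 0.791 to 0.341, 0.561 and 0.46 CPM, a change of -1.27 (SE 0.27, adjusted p = 0.0045). In U2OS the direction was the opposite. In WT U2OS it rose from 1.19, 1.31 and 1.26 to 3.47, 3.66 and 3.37 CPM, a change of 1.47 (SE 0.13, adjusted p = 5.77e-05). ID3-KO U2OS rose from 1.64, 1.84 and 1.29 to 4.95, 3.92 and 4.91 CPM, a change of 1.53 (SE 0.14, adjusted p = 1.02e-09). The untreated WT levels lay slightly lower in AID-DIvA than in U2OS without overlap, those of ID3-KO overlapped, and treated and untreated libraries did not overlap in any comparison. The recovered minus treated difference in response was -2.72 in WT (adjusted p = 1.26e-06) and -2.82 in ID3-KO (adjusted p = 3.41e-07).

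CXCL14 (ENSG00000145824.8, chr5:134906373-134914969, minus strand), a ligand of epithelia and stroma with no settled signalling receptor, fell in every comparison. WT AID-DIvA went from 10.1, 9.57 and 9.42 to 1.17, 1.32 and 1.48 CPM, a log2 fold change of -2.85 (SE 0.10, adjusted p = 2.44e-10). ID3-KO AID-DIvA went from 5.82, 4.92 and 4.54 to 0.967, 1.29 and 0.854 CPM, a change of -2.25 (SE 0.16, adjusted p = 6.14e-06). The untreated ID3-KO libraries all lay under the WT ones. The highest levels were in untreated WT U2OS, at 47.7, 62.7 and 58.8 CPM, against 5.66, 4.75 and 5.2 CPM after treatment, a change of -3.44 (SE 0.13, adjusted p = 1.74e-06). ID3-KO U2OS started at 9.91, 10.3 and 11.2 CPM and ended at 5.14, 4.98 and 5.37 CPM, a change of -1.02 (SE 0.08, adjusted p = 1.13e-10). Treated WT and ID3-KO U2OS thus ended at overlapping levels from different starting points. Without untreated replicate 3 or treated replicate 2 the ID3-KO U2OS change was -0.97 or -0.99, just short of the fold threshold.

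CXCL16 (ENSG00000161921.10, chr17:4636821-4643217, minus strand), a membrane-bound ligand that is also a scavenger receptor, did not pass the fold threshold. It stood at 6.72, 7.04 and 7.08 CPM in untreated and 5.44, 5.31 and 5.38 CPM in recovered WT AID-DIvA, and at 9.75, 9.29 and 9.4 CPM untreated and 10.2, 8.79 and 9.33 CPM recovered in ID3-KO. The levels in U2OS were 11.4, 8.62 and 9.78 CPM untreated and 15.5, 17.1 and 17.2 CPM treated in WT and 10.1, 11 and 11 CPM untreated and 18.6, 18.2 and 18.9 CPM treated in ID3-KO. Its log2 fold changes were -0.35, -0.01, 0.74 and 0.80 in that order, and the treated U2OS libraries lay above all untreated ones. CXCL11, an interferon-induced ligand of CXCR3, was called only at low counts: 6, 2 and 2 untreated against 30, 21 and 26 treated in WT U2OS, a change of 2.9 (SE 0.47, adjusted p = 0.00157), and 1, 11 and 5 against 18, 19 and 23 in ID3-KO U2OS, a change of 1.7 (SE 0.46, adjusted p = 0.00216). CXCL9 and CXCL10, the neighbouring genes, had 10 and 49 counts over all 24 libraries.

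Of the CC ligands, CCL20 (ENSG00000115009.7, chr2:228678558-228682272, plus strand), which attracts CCR6-bearing lymphocytes and dendritic cells, had the largest rise in CPM of the members. WT AID-DIvA rose from 0.575, 0.26 and 0.509 to 8.11, 5.33 and 5.19 CPM, a log2 fold change of 3.82 (SE 0.25, adjusted p = 3.80e-07). ID3-KO AID-DIvA rose from 0.684, 0.917 and 0.678 to 11.8, 10.8 and 9.03 CPM, a change of 3.77 (SE 0.15, adjusted p = 1.78e-07). Recovered ID3-KO libraries lay above all recovered WT ones. In treated cells WT U2OS rose from 1.84, 1.23 and 1.07 to 61.5, 55.9 and 67.3 CPM, a change of 5.47 (SE 0.20, adjusted p = 1.48e-06). ID3-KO U2OS rose from 1.06, 1.15 and 1.19 to 54.5, 44.4 and 44.1 CPM, a change of 5.39 (SE 0.10, adjusted p = 1.69e-20). Every treated library lay above every untreated one of its comparison, and the treated U2OS libraries lay above all recovered ones. The log2 response was smaller after recovery in AID-DIvA than in treated U2OS, with a difference of -1.65 in WT (adjusted p = 0.0040) and -1.63 in ID3-KO (adjusted p = 6.12e-06).

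CCL4 (ENSG00000129277.9, chr17:34430983-34433014, plus strand), an attractant of monocytes and T cells, had its larger response after recovery. It was at 0.0616, 0.0692 and 0.0477 CPM in untreated and 0.966, 0.866 and 1.11 CPM in recovered WT AID-DIvA, a log2 fold change of 4.03 (SE 0.30, adjusted p = 1.83e-07). In ID3-KO AID-DIvA it was at 0.0513, 0.153 and 0.132 CPM untreated and 4.24, 3.0 and 2.76 CPM recovered, a change of 4.82 (SE 0.28, adjusted p = 1.61e-06). The rise was from a few counts a library in both genotypes. WT U2OS had 0.275, 0.397 and 0.207 CPM untreated and 1.28, 0.911 and 1.54 CPM treated, a change of 2.06 (SE 0.31, adjusted p = 0.00102), and ID3-KO U2OS 0.85, 0.452 and 0.408 CPM untreated and 2.99, 2.2 and 2.55 CPM treated, a change of 2.2 (SE 0.21, adjusted p = 2.76e-09). The recovered minus treated difference in response was 1.96 in WT (adjusted p = 0.00526) and 2.61 in ID3-KO (adjusted p = 1.05e-04). The near-identical copies CCL4L1 and CCL4L2 had 6 and 0 counts, so that reads shared between the copies are not resolved.

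CCL3, the neighbour of CCL4 and a ligand of CCR1, stayed lower than 1 CPM. Its counts were 2, 2 and 3 in untreated and 28, 13 and 29 in recovered WT AID-DIvA, a log2 fold change of 3.43 (SE 0.42, adjusted p = 2.04e-05), and 10, 9 and 6 untreated and 13, 16 and 17 recovered in ID3-KO AID-DIvA, a change of 1.21 (SE 0.33, adjusted p = 0.0158). In WT U2OS 13, 8 and 0 counts stood against 26, 18 and 47, a change of 2.08 (SE 0.68, adjusted p = 0.0359), and in ID3-KO U2OS 2, 9 and 9 against 14, 17 and 7, which was not tested. CCL3 had 318 counts from either strand but 775 on its own strand, and it overlaps AC069363.1, which is annotated on the other strand. On own-strand counts it was called higher in all 4 comparisons, with log2 fold changes of 3.53, 1.44, 1.91 and 1.6. The either-strand call in ID3-KO AID-DIvA was lost without recovered replicate 3, at 1.1 (adjusted p = 0.0511), or untreated replicate 2, at 1.12 (adjusted p = 0.0669). The call in WT U2OS was lost without any treated library or untreated replicate 2, with the highest adjusted p without treated replicate 3, at 1.8 (adjusted p = 0.146).

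CCL2 (ENSG00000108691.5, chr17:32582304-32584222, plus strand), which recruits monocytes through CCR2, rose after recovery in AID-DIvA. WT AID-DIvA had 2.65, 2.86 and 2.56 CPM untreated and 6.74, 4.45 and 4.75 CPM recovered, a log2 fold change of 1.01 (SE 0.14, adjusted p = 7.08e-05), and ID3-KO AID-DIvA 3.34, 3.45 and 3.35 CPM untreated and 11.9, 10.2 and 10.1 CPM recovered, a change of 1.66 (SE 0.09, adjusted p = 9.53e-07). In U2OS it was not called, with 8.15, 6.68 and 7.15 CPM untreated and 5.67, 5.8 and 6.01 CPM treated in WT, a log2 fold change of -0.33, and 2.94, 3.08 and 2.85 CPM untreated and 4.95, 5.39 and 5.58 CPM treated in ID3-KO, a change of 0.85. The WT AID-DIvA value was 0.80 without recovered replicate 1, 0.99 without untreated replicate 1 and 0.97 without untreated replicate 3, each short of the fold threshold. CCL7, the next gene of the same cluster, was called in U2OS: 0, 5 and 7 counts against 20, 14 and 28 in WT, a change of 2.29 (SE 0.69, adjusted p = 0.0268), and 5, 2 and 5 against 18, 19 and 19 in ID3-KO, a change of 2.09 (SE 0.45, adjusted p = 2.45e-04). The WT call of CCL7 was lost without any treated library or untreated replicate 2, with the highest adjusted p without treated replicate 3, at 2.16 (adjusted p = 0.102).

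CCL5, a T cell and monocyte attractant, was called after recovery: 4, 14 and 6 counts untreated against 21, 11 and 29 in WT AID-DIvA, a log2 fold change of 1.51 (SE 0.41, adjusted p = 0.00856), and 11, 12 and 11 against 32, 39 and 32 in ID3-KO, a change of 1.93 (SE 0.26, adjusted p = 3.05e-04). The WT libraries overlapped between the groups and the ID3-KO libraries did not. On own-strand counts CCL5 had too few reads to be tested in WT, and its change in ID3-KO was 2.65. Its U2OS changes were 0.27 in WT and -0.33 in ID3-KO and were not called, and the WT value turned to -0.30 without untreated replicate 1. CCL28 (ENSG00000151882.7, chr5:43376747-43412493, minus strand), a mucosal ligand of CCR10 and CCR3, rose in WT U2OS from 0.413, 0.383 and 0.432 to 1.34, 1.76 and 1.48 CPM, a change of 1.89 (SE 0.20, adjusted p = 1.63e-04). ID3-KO U2OS rose from 0.174, 0.167 and 0.177 to 0.739, 0.88 and 0.826 CPM, a change of 2.23 (SE 0.29, adjusted p = 3.60e-07). In AID-DIvA CCL28 stood at 0.267, 0.242 and 0.191 CPM untreated and 0.379, 0.365 and 0.203 CPM recovered in WT, with groups that overlapped, and at 0.171, 0.0278 and 0.17 CPM untreated and 0.512, 0.349 and 0.285 CPM recovered in ID3-KO, a change of 1.67 (SE 0.49, adjusted p = 0.0212). Without untreated replicate 2 the latter was 1.1 (adjusted p = 0.0553), and without recovered replicate 2 it was 1.72 (adjusted p = 0.0566).

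CCL24 and CCL26, neighbouring genes on chromosome 7 that encode eosinophil attractants read by CCR3, had 1 treatment call between them. CCL24 (ENSG00000106178.2, chr7:75440983-75452674, minus strand) went from 1.62, 1.56 and 1.19 to 0.739, 0.684 and 0.591 CPM in WT AID-DIvA, a log2 fold change of -1.09 (SE 0.18, adjusted p = 2.92e-04). That value was -1.0 without recovered replicate 3, which is short of the fold threshold before rounding. CCL24 stood at 0.701, 0.681 and 0.848 CPM untreated and 1.76, 1.21 and 0.833 CPM recovered in ID3-KO AID-DIvA, at 4.41, 4.68 and 4.96 CPM untreated and 4.84, 3.45 and 3.37 CPM treated in WT U2OS and at 1.68, 1.31 and 1.56 CPM untreated and 1.7, 2.29 and 2.09 CPM treated in ID3-KO U2OS, none of them called. CCL26 (ENSG00000006606.4, chr7:75398851-75419214, minus strand) was called in no treatment comparison, with 6.18, 6.07 and 6.38 CPM untreated and 5.51, 5.38 and 5.03 CPM recovered in WT and 3.04, 2.53 and 3.2 CPM untreated and 5.35, 4.04 and 4.45 CPM recovered in ID3-KO AID-DIvA. In U2OS it stood at 13.2, 8.58 and 8.22 CPM untreated and 7.33, 6.48 and 6.42 CPM treated in WT and 5.35, 4.9 and 4.75 CPM untreated and 4.5, 5.11 and 5.12 CPM treated in ID3-KO, and untreated WT replicate 1 was the highest library.

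CX3CL1 (ENSG00000006210.6, chr16:57406370-57418960, plus strand), or fractalkine, is a membrane-anchored ligand that is shed by proteases. It rose past the fold threshold in ID3-KO U2OS, from 4.6, 4.49 and 5.11 to 15.4, 13.7 and 14.5 CPM, a log2 fold change of 1.62 (SE 0.08, adjusted p = 2.34e-14). WT U2OS had 25, 21.4 and 19.8 CPM untreated and 26.8, 22.4 and 25.1 CPM treated, a change of 0.16, with groups that overlapped. WT AID-DIvA had 19.1, 17.5 and 16.1 CPM untreated and 8.09, 11.2 and 11 CPM recovered, a change of -0.78, and ID3-KO AID-DIvA 4.7, 3.79 and 4.2 CPM untreated and 5.49, 4.66 and 5.41 CPM recovered, a change of 0.29. The XC ligand XCL1 (ENSG00000143184.4, chr1:168545711-168551315, plus strand), a product of cytotoxic lymphocytes, fell in WT U2OS from 2.37, 3.12 and 2.07 to 1.34, 1.03 and 1.24 CPM, a change of -1.07 (SE 0.20, adjusted p = 0.00304), and stood at 1.85, 1.36 and 1.93 CPM untreated and 1.01, 1.12 and 0.991 CPM treated in ID3-KO U2OS, a change of -0.72. In AID-DIvA it stood at 1.87, 1.3 and 1.48 CPM untreated and 1.27, 1.66 and 1.61 CPM recovered in WT and 1.35, 1.32 and 1.32 CPM untreated and 2.05, 1.44 and 1.4 CPM recovered in ID3-KO, with changes of -0.01 and 0.26. The WT U2OS call of XCL1 was lost without untreated replicate 2, at -0.89, without treated replicate 2, at -0.97, and on own-strand counts, at -1.0.

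**Figure D3:**
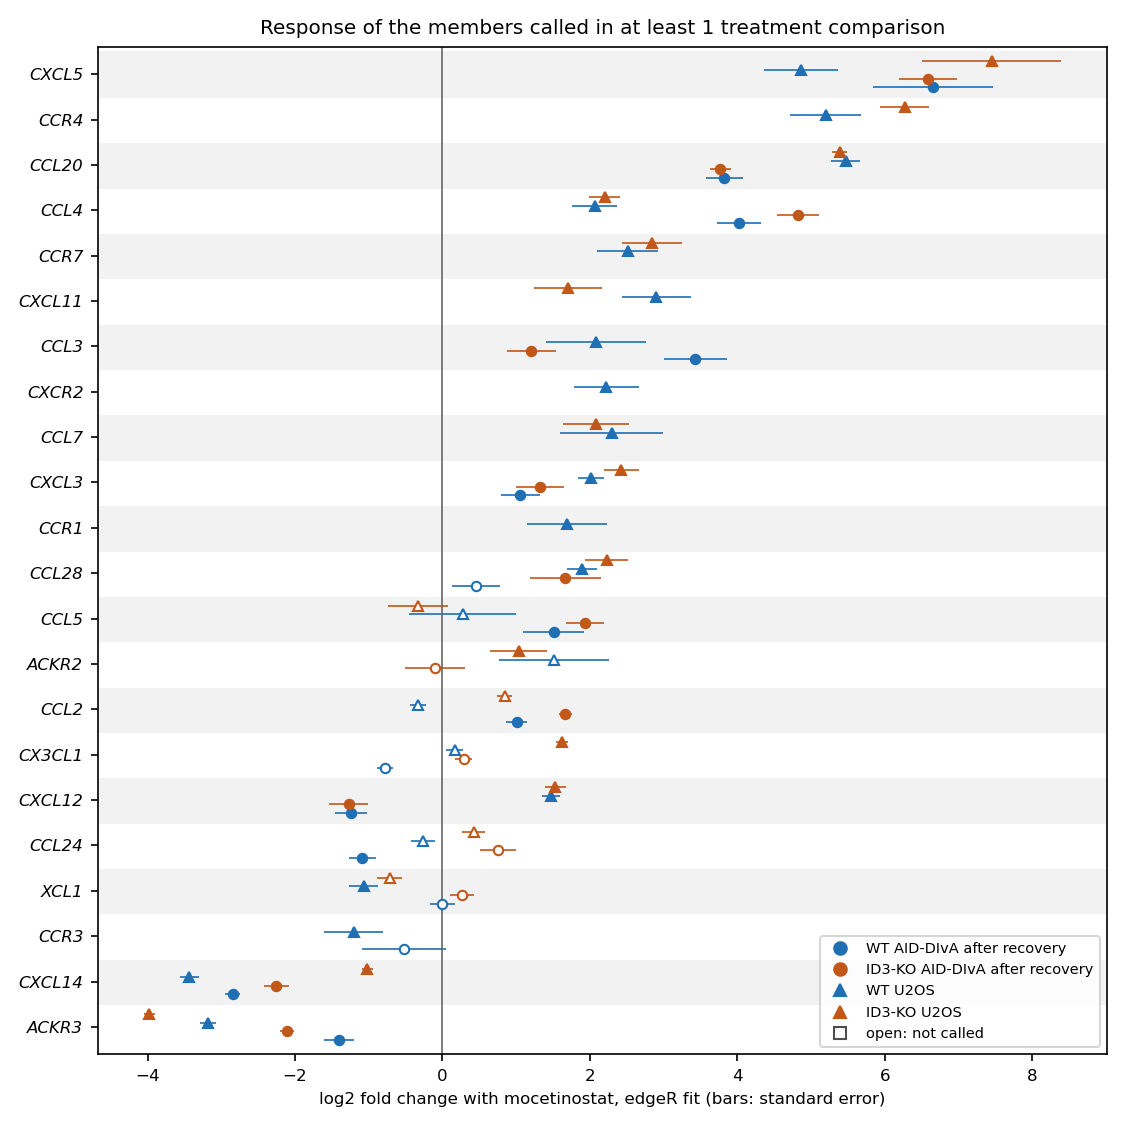
Log2 fold change with mocetinostat (edgeR, bars: standard error) of the 22 members called in at least 1 treatment comparison; circles are AID-DIvA after recovery, triangles U2OS, blue WT and orange ID3-KO, and open symbols were not called. CXCL12 lies on opposite sides of 0 in the 2 lines; fitted values of CXCL5 and CCR4 rest on 0 to 5 untreated counts and are no measure of their size.

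Among the signalling receptors, CCR4 (ENSG00000183813.6, chr3:32993066-32997841, plus strand), the receptor of CCL17 and CCL22 on helper T cells, was counted almost only in treated U2OS. WT U2OS had 2, 3 and 0 counts untreated and 56, 58 and 81 treated, or 0.852, 1.15 and 1.07 CPM, a fitted log2 fold change of 5.2 (SE 0.48, adjusted p = 9.03e-05). ID3-KO U2OS had 1, 1 and 2 counts and 109, 113 and 139, or 1.83, 2.07 and 2.09 CPM, a fitted change of 6.27 (SE 0.33, adjusted p = 1.03e-13). Recovered AID-DIvA had 1, 0 and 2 counts in WT and 3, 1 and 0 in ID3-KO, with 3, 0 and 0 and 0, 0 and 1 in the untreated cells, and was not tested. Nearly all CCR4 reads, 575 of 576, lay on its own strand. Its ligands CCL17 and CCL22 had 87 and 15 counts over the 24 libraries. Of the strand-assigned reads of CCL17, 76 lay on the other strand and 11 on its own.

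The other receptor calls were made on few counts. CCR7, which guides lymphocytes to lymph nodes, rose in U2OS from 11, 6 and 5 to 55, 37 and 33 counts in WT, a log2 fold change of 2.51 (SE 0.42, adjusted p = 0.00183), and from 3, 4 and 4 to 32, 30 and 25 in ID3-KO, a change of 2.85 (SE 0.41, adjusted p = 1.56e-06). CXCR2, the receptor of CXCL5, CXCL3 and CXCL8, rose in WT U2OS from 3, 3 and 3 to 15, 14 and 14 counts, a change of 2.22 (SE 0.44, adjusted p = 0.00414). CCR1 and CCR3, which overlap on opposite strands, were called in opposite directions in WT U2OS: CCR1 went from 3, 7 and 1 to 13, 8 and 15 counts, a change of 1.69 (SE 0.54, adjusted p = 0.0329), and CCR3 from 17, 18 and 10 to 5, 7 and 7, a change of -1.21 (SE 0.40, adjusted p = 0.0387). The CCR3 call was lost without each single library, with values between -1.45 and -1.04, and the CCR1 call without each treated library and without untreated replicate 3, with values down to 1.34. In ID3-KO U2OS CCR1 was not tested, with 0, 2 and 1 counts untreated and 13, 10 and 11 treated, a ratio of 10.5 with a 95% exact counting interval of 3.31 to 53.6. CCR10 (ENSG00000184451.5, chr17:40830907-40835935, minus strand) was called in no comparison, at 1.21, 1.4 and 1.72 CPM untreated and 1.97, 2.94 and 3.01 CPM recovered in WT and 1.09, 1.0 and 1.43 CPM untreated and 1.71, 1.44 and 1.47 CPM recovered in ID3-KO AID-DIvA, and at 2.11, 1.44 and 1.28 CPM untreated and 2.45, 2.52 and 2.47 CPM treated in WT and 1.29, 1.12 and 1.15 CPM untreated and 1.66, 1.45 and 1.73 CPM treated in ID3-KO U2OS. CXCR6 (ENSG00000172215.5, chr3:45982425-45989845, plus strand), whose reads lay on the other strand, was not called either, at 1.42, 1.32 and 1.05 CPM untreated and 2.22, 1.6 and 1.33 CPM recovered in WT and 1.56, 1.28 and 1.17 CPM untreated and 1.54, 1.67 and 1.47 CPM recovered in ID3-KO AID-DIvA, and at 1.07, 1.82 and 1.71 CPM untreated and 1.79, 2.26 and 1.97 CPM treated in WT and 1.85, 2.18 and 2.3 CPM untreated and 2.45, 2.47 and 2.91 CPM treated in ID3-KO U2OS.

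The atypical receptor ACKR3 (ENSG00000144476.5, chr2:237476430-237491001, plus strand) fell in all 4 comparisons. It had the highest group mean per kb of the members in all 4 untreated groups, though in WT U2OS only with replicate 1 included. WT AID-DIvA went from 70.6, 69.3 and 67.5 to 17.9, 29 and 30.4 CPM, a log2 fold change of -1.4 (SE 0.20, adjusted p = 0.00262). ID3-KO AID-DIvA went from 60.8, 58.9 and 59.4 to 12.3, 13.5 and 15.6 CPM, a change of -2.11 (SE 0.10, adjusted p = 4.76e-07). The groups did not overlap. In WT U2OS it went from 76.2, 64.9 and 62.6 to 7.66, 6.91 and 7.89 CPM, a change of -3.18 (SE 0.11, adjusted p = 1.36e-06), and in ID3-KO U2OS from 51.8, 46.6 and 47.9 to 3.04, 2.73 and 3.45 CPM, a change of -3.97 (SE 0.08, adjusted p = 2.27e-21). No treated library reached the range of its untreated group. The fall was smaller after recovery in AID-DIvA than in treated U2OS, with a recovered minus treated difference in log2 fold change of 1.77 in WT (adjusted p = 2.50e-05) and 1.86 in ID3-KO (adjusted p = 6.57e-10). ACKR2, a scavenger of CC chemokines, was called in ID3-KO U2OS on 5, 10 and 12 against 21, 12 and 27 counts, a change of 1.03 (SE 0.39, adjusted p = 0.0217), and the call was lost without treated replicate 1 or 3 or untreated replicate 1, with values down to 0.79.

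Without untreated WT U2OS replicate 1, 16 members were called in the WT U2OS treatment comparison in place of 17, the difference being CCR3 at -1.13 (adjusted p = 0.0793). The log2 fold changes of the main members were then 5.73 for CCL20, 5.22 for CXCL5, 2.06 for CXCL3, 2.0 for CCL4, 1.43 for CXCL12, -3.54 for CXCL14 and -3.08 for ACKR3. Among the members of low count, CCL7 then stood at 1.72, CCL3 at 2.86, CXCL11 at 3.59 and CCR7 at 2.89, all called with and without it. ACKR2, with 0 counts in that library, moved from 1.51 to 0.93 and was called in neither.

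Untreated ID3-KO cells were compared next with untreated WT cells of the same line. The knockout and other differences between the cultured ID3-KO and WT cells cannot be told apart here. In AID-DIvA none of the 66 members was higher and 2 were lower in ID3-KO than in WT, with 18 tested and 2.3% of the 20441 genes tested called lower, 2.27% higher and 4.58% in either direction. On own-strand counts CCL3, which was not tested on either-strand counts, was called higher in ID3-KO AID-DIvA by 1.32. In U2OS none was higher and 6 were lower, with 21 tested and 2.84% of the 20621 genes called lower, 1.42% higher and 4.26% in either direction. By the adjusted p alone 9 members differed in AID-DIvA, and CXCL16, CCL2 and CCL20 were then higher in ID3-KO, where 18.6% of all genes tested were higher and 18.1% lower.

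**Figure D4:**
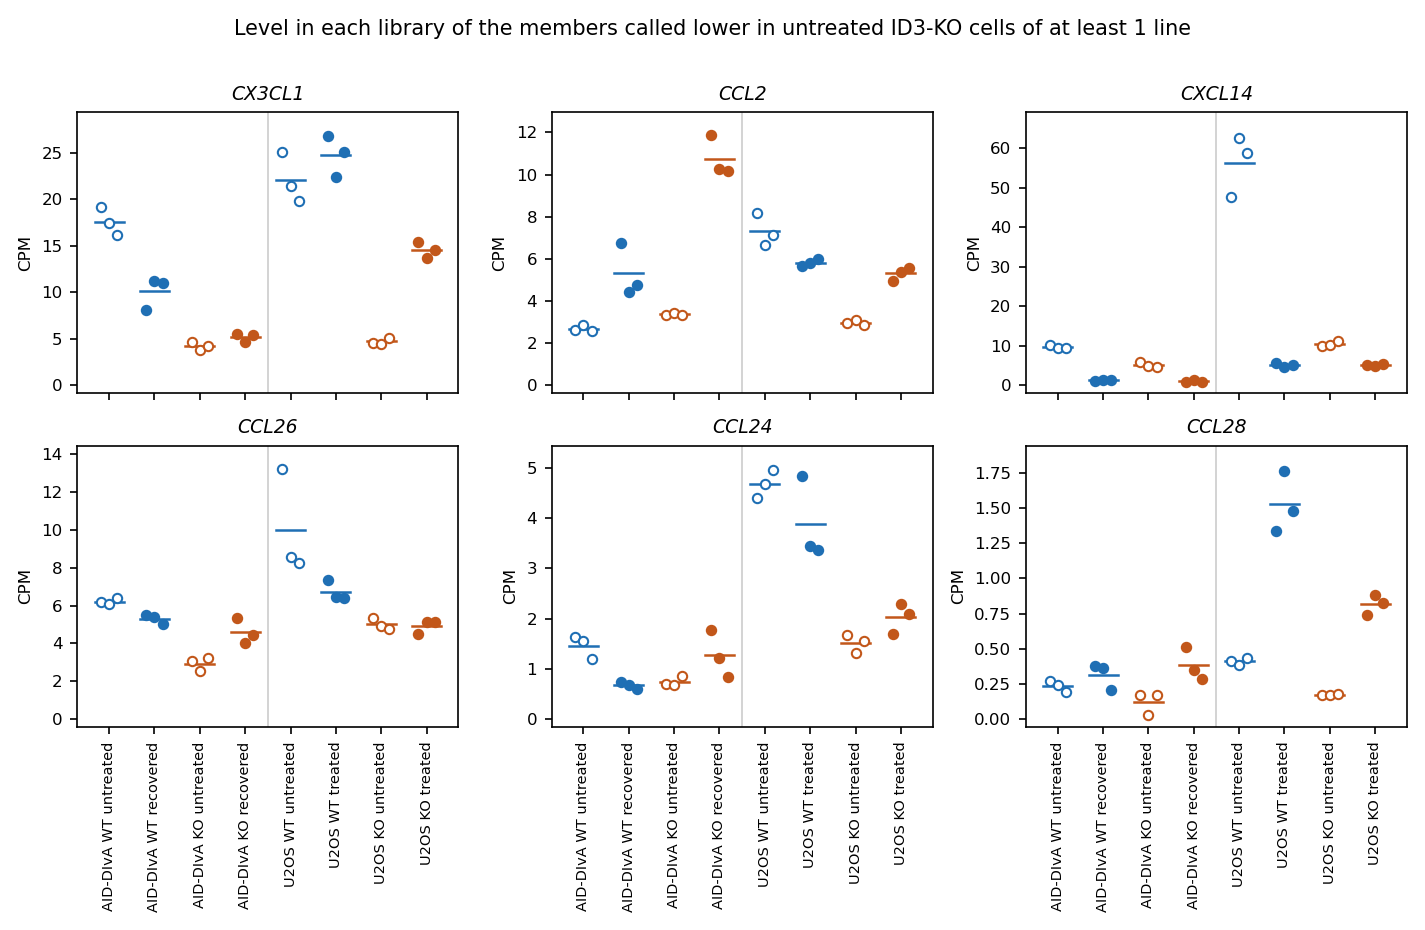
CPM in each library for the 6 members called lower in untreated ID3-KO cells of at least 1 line; circles are the 3 libraries of a group, open for untreated and filled for mocetinostat, blue for WT and orange for ID3-KO, and bars are group means. In untreated cells the ID3-KO libraries of CX3CL1 (3.79 to 5.11 CPM) lie far under the WT libraries (16.1 to 25 CPM) in both lines.

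CX3CL1 and CCL26 were lower in both untreated knockouts. The WT values of CX3CL1 given above, 19.1, 17.5 and 16.1 CPM in AID-DIvA and 25, 21.4 and 19.8 CPM in U2OS, stood against 4.7, 3.79 and 4.2 and 4.6, 4.49 and 5.11 CPM in ID3-KO, log2 differences of -2.07 (SE 0.09, adjusted p = 6.84e-11) and -2.23 (SE 0.12, adjusted p = 4.96e-05). CCL26 differed by -1.11 (SE 0.10, adjusted p = 2.74e-07) in AID-DIvA and -1.01 (SE 0.19, adjusted p = 0.012) in U2OS. The CCL26 call was lost in AID-DIvA without ID3-KO replicate 2, at -0.99. In U2OS it was lost without WT replicate 1, at -0.76, and without any ID3-KO library. In U2OS a further 4 members were lower in ID3-KO, and the groups did not overlap for any of them. CCL2 differed by -1.32 (SE 0.12, adjusted p = 4.20e-04) and CXCL14 by -2.43 (SE 0.12, adjusted p = 4.24e-05). CCL24 differed by -1.64 (SE 0.14, adjusted p = 3.16e-04) and CCL28 by -1.24 (SE 0.28, adjusted p = 0.0233). Without WT replicate 1 the U2OS differences were -2.13 for CX3CL1, -1.22 for CCL2, -2.54 for CXCL14, -1.67 for CCL24 and -1.22 for CCL28. The CCL28 call held there, but was lost without any other single library, with the highest adjusted p without ID3-KO replicate 2, at -1.22 (adjusted p = 0.109).

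In AID-DIvA the CXCL14 difference was -0.94 (adjusted p = 3.27e-07) and that of CCL24 -0.99 (adjusted p = 3.22e-04), short of the fold threshold, while CCL2 was higher in ID3-KO by 0.32 (adjusted p = 0.0183). CCL2 thus lay above WT in ID3-KO AID-DIvA and under it in ID3-KO U2OS, with no overlap of the groups in either line. Whether the ID3-KO minus WT differences differ between the lines was not tested. The ID3-KO minus WT difference of ACKR3 was -0.22 and -0.49 in AID-DIvA and U2OS. That of CCL20 was 0.78 and -0.29, with overlap of the groups in U2OS.

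The central question of the design, whether ID3-KO cells respond otherwise than WT cells, was tested as the difference of the treatment responses. In AID-DIvA 3 members passed at an adjusted p below 0.05, all with the higher response in ID3-KO, with 23 tested and 1.21% of the 21265 genes tested called (0.762% higher, 0.451% lower). In U2OS 4 passed, of which 3 had the higher response in ID3-KO and 1 the lower, with 29 tested and 2.15% of 22647 genes called (1.1% higher, 1.06% lower). All of them also had an adjusted p below 0.05 between the genotypes in untreated cells of the same line. The untreated libraries enter both the baseline and the interaction, so that both tests are not independent.

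CX3CL1 passed in both lines. Its response in ID3-KO exceeded that in WT by 1.07 (SE 0.18, adjusted p = 0.00576) on the log2 scale in AID-DIvA and by 1.46 (SE 0.14, adjusted p = 6.59e-05) in U2OS. In AID-DIvA the log2 fold change was -0.78 in WT and 0.29 in ID3-KO, and in U2OS it was 0.16 and 1.62. In both lines the recovered or treated ID3-KO libraries stayed under all WT libraries. In AID-DIvA the response of CCL26 differed by 0.86 (SE 0.15, adjusted p = 0.0098) and that of CCL24 by 1.84 (SE 0.32, adjusted p = 0.0076). For both, the mean was higher after recovery than before in ID3-KO and lower in WT. In U2OS the response of CCL2 differed by 1.18 (SE 0.14, adjusted p = 3.36e-04), that of CXCL14 by 2.42 (SE 0.14, adjusted p = 9.76e-07) and that of ACKR3 by -0.80 (SE 0.14, adjusted p = 0.00847). ACKR3 was the called member whose fall was larger in ID3-KO, to 3.04, 2.73 and 3.45 CPM against 7.66, 6.91 and 7.89 CPM in WT. Without WT untreated replicate 1 the U2OS values were 1.36, 1.09, 2.52 and -0.89 for CX3CL1, CCL2, CXCL14 and ACKR3, and CCL24 passed as well, at 0.73 (adjusted p = 0.0233).

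CCL20, CXCL12, CXCL3 and CCL4, which were called in all 4 treatment comparisons, passed in neither line. The interaction of CCL20 was -0.05 (SE 0.34, adjusted p = 0.975) in AID-DIvA and -0.07 (SE 0.23, adjusted p = 0.925) in U2OS. For CXCL12 it was -0.03 (SE 0.37, adjusted p = 0.989) and 0.06 (SE 0.20, adjusted p = 0.93), and for CXCL3 0.27 (SE 0.45, adjusted p = 0.85) and 0.41 (SE 0.34, adjusted p = 0.652). CCL4 had interactions of 0.80 (SE 0.64, adjusted p = 0.68) and 0.13 (SE 0.44, adjusted p = 0.928), while its recovered ID3-KO AID-DIvA libraries lay at 4.24, 3.0 and 2.76 CPM against 0.966, 0.866 and 1.11 CPM in WT. A p that misses the threshold does not show that the genotypes responded alike, and the standard errors of CCL4 are the widest of these. CXCL5, also called in all 4 treatment comparisons, passed in neither line, and its untreated libraries held 0 to 2 counts each. On own-strand counts CCL3 also passed in AID-DIvA, with an ID3-KO minus WT difference of -2.07. Without recovered WT AID-DIvA replicate 1, CCL2 passed in AID-DIvA at 0.87 (adjusted p = 0.00278) and ACKR3 at -0.91 (adjusted p = 6.83e-04).

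The response of AID-DIvA after recovery was set against that of U2OS within each genotype. In WT 17 members differed, 6 with the higher value after recovery and 11 with the lower, of 28 tested, where 42.2% of 22238 genes tested were called (20.5% higher, 21.7% lower). In ID3-KO 13 differed, 6 higher and 7 lower, of 26 tested, where 52.5% of 21947 genes were called (24.8% higher, 27.7% lower). CCL2, CCL4, ACKR3 and XCL1 had the higher value after recovery in both genotypes, and CXCL12, CX3CL1, CXCL16, CCL20 and CXCL3 the lower value in both. CXCL14 was called in opposite directions, 0.58 in WT and -1.24 in ID3-KO. The WT call of CXCL14 was lost without recovered WT AID-DIvA replicate 3, at 0.50 (adjusted p = 0.0537). Without the same library that of CCL24 was lost, at -0.73 (adjusted p = 0.0588). That of XCL2 was lost without treated WT U2OS replicate 3, at 1.53 (adjusted p = 0.0501). Without untreated WT U2OS replicate 1, CCL5 passed in WT as well, at 1.8 (adjusted p = 0.0111). On own-strand counts CCL3 passed in WT, at 1.61. Several of the line differences rest on single libraries: without untreated WT AID-DIvA replicate 1 the WT value of CCR4 was -1.79 (adjusted p = 0.821) against -5.04 with it, and those of CXCL3 in both genotypes and CCR7 in WT were lost in 6 or more of the 12 fits that left out 1 library.

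Genes next to the members in the pathway were counted by direction. Of the chemokine genes under other names, 6 in the tables, 2 rose in WT AID-DIvA, 2 in ID3-KO AID-DIvA, 3 in WT U2OS and 2 in ID3-KO U2OS, and none fell, with 3 tested in each. Over all genes tested 4.86%, 4.9%, 13.6% and 14.6% rose and 2.52%, 2.56%, 5.06% and 5.77% fell in the same order. IL8, the gene of the neutrophil attractant CXCL8, rose from 1.27, 0.934 and 0.987 to 25.5, 14.2 and 13.5 CPM in WT AID-DIvA, a log2 fold change of 4.09 (SE 0.37, adjusted p = 3.44e-04). It rose from 0.633, 0.528 and 0.678 to 20.3, 16.9 and 18.2 CPM in ID3-KO AID-DIvA, a change of 4.92 (SE 0.12, adjusted p = 2.69e-08). The groups did not overlap. In U2OS it rose from 2.51, 1.94 and 1.92 to 43.5, 39.6 and 45.1 CPM in WT, a change of 4.33 (SE 0.13, adjusted p = 8.13e-07), and from 0.27, 0.234 and 0.319 to 47.5, 38.8 and 38 CPM in ID3-KO, a change of 7.23 (SE 0.14, adjusted p = 1.69e-20). The U2OS responses differed by 2.91 (SE 0.23, adjusted p = 1.21e-05), with an untreated ID3-KO minus WT difference of -2.95 and treated levels that overlapped. Without untreated WT replicate 1 the WT U2OS change of IL8 was 4.47, its untreated difference -2.81 and its difference in response 2.76. The AID-DIvA responses of IL8 were not called different with all libraries. Without recovered WT AID-DIvA replicate 1 they were, at 1.19 (adjusted p = 0.00509). CCRL2, an atypical receptor that presents chemerin, rose in all 4 comparisons, by 2.89, 2.18, 2.07 and 1.54. DARC, the atypical receptor ACKR1 of erythrocytes and venules, rose in WT U2OS by 1.64 (SE 0.19, adjusted p = 3.05e-04) and its values of -0.66 and -0.95 in WT and ID3-KO AID-DIvA were short of the fold threshold. In ID3-KO U2OS DARC went from 2.99, 3.4 and 2.87 to 5.61, 5.92 and 6.57 CPM, without overlap, and was not called.

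Of 20 genes of receptor signalling and desensitisation, 2 of 19 tested rose in WT AID-DIvA, 1 of 18 in ID3-KO AID-DIvA, 6 of 19 in WT U2OS and 7 of 19 in ID3-KO U2OS, where 4.86%, 4.9%, 13.6% and 14.6% of all genes tested rose. A single gene of the list fell, in ID3-KO U2OS. RAC2, a small GTPase of blood cells, rose in all 4 comparisons, by 1.76, 1.4, 3.15 and 1.9. PIK3R5, a regulatory subunit of PI3K gamma, rose by 1.29 in WT AID-DIvA, 3.14 in WT U2OS and 4.48 in ID3-KO U2OS. PREX1, ELMO1, GRK5 and RGS2, which act on Rac or damp G protein signalling, rose in both U2OS comparisons, PREX1 by 1.78 and 1.26, ELMO1 by 1.09 and 1.52, GRK5 by 1.31 and 1.13 and RGS2 by 1.08 and 1.52 in WT and ID3-KO.

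Of 14 genes of chemokine processing and presentation, 2 rose and 2 fell in WT AID-DIvA, 2 rose and 1 fell in ID3-KO AID-DIvA, and 4 rose and 1 fell in each of WT and ID3-KO U2OS. The numbers tested were 13, 12, 13 and 14, and of all genes tested 4.86%, 4.9%, 13.6% and 14.6% rose and 2.52%, 2.56%, 5.06% and 5.77% fell in the same order. MMP3, a metalloprotease that cuts chemokines, rose in all 4 comparisons, by 3.8, 2.18, 1.84 and 1.93. DPP4, which trims the first residues of CXCL12 and other chemokines, rose by 1.04 in WT AID-DIvA and by 2.29 and 2.25 in WT and ID3-KO U2OS, and its value in ID3-KO AID-DIvA was 0.96. SDC2, a heparan sulfate carrier, was lower after recovery in AID-DIvA, with changes of -1.53 and -1.8, and GPC1, another, was lower in treated U2OS, with changes of -1.29 and -1.02. Neither was called in the other line, but both lay lower there too, without overlap of the groups. GPC1 went from 579, 583 and 566 to 236, 326 and 324 CPM in WT AID-DIvA. SDC2 went from 85.5, 85 and 85.9 to 45.4, 46.5 and 43.4 CPM in ID3-KO U2OS. TNFAIP6, which binds chemokines and glycosaminoglycans, fell in WT AID-DIvA with a change of -2.81 (SE 0.51, adjusted p = 5.26e-04), and rose in WT U2OS by 1.31 (SE 0.18, adjusted p = 6.83e-04) and in ID3-KO U2OS by 3.54 (SE 0.38, adjusted p = 1.70e-08).

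The remaining 39 members had few reads. CCL14, CCL15-CCL14, CCL16, CCL27 and CCL4L2 had 0 counts in all 24 libraries, and 3 counts over a group correspond to 0.0156 to 0.0204 CPM. Between 1 and 10 counts over all libraries were found at 17: CCL1, CCL11, CCL13, CCL15, CCL18, CCL19, CCL21, CCL23, CCL3L1, CCL4L1, CCR2, CCR8, CXCL1, CXCL2, CXCL6, CXCL9 and CXCR3. Between 11 and 100 counts were found at 15, among them CCL17, CCL22, CCL25, CCL3L3, CCL8, CCR6, CCR9, CXCL10, CXCL13, CXCL17, CXCR1, CXCR4, CXCR5 and XCR1. CX3CR1 and ACKR4, with 306 and 405 counts, were tested and not called. XCL2, whose reads lay mainly on the other strand, was among the 10 low members called in a comparison, with a difference between the WT responses of the lines of 1.75 (SE 0.53, adjusted p = 0.0174). The others of this remainder passed the count filter in no comparison and have no test.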

How the data were processed

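Stranded total RNA libraries of 24 cultures were sequenced paired-end. Per the methods and the submitters' processing notes, the authors used the Roddy workflow, with STAR for alignment (hg19/GRCh37) and featureCounts for fragments per gene, tool versions not given in the sources used here. The deposited read counts from either strand were tested as deposited, and the deposited counts of each strand were used for the strand check. The deposited RPKM and TPM values were not used.

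Comparisons used edgeR 4.0.16 (R 4.3.3, limma 3.58.1): TMM scaling, filterByExpr, robust quasi-likelihood fits of only the groups compared, and Benjamini-Hochberg adjustment over all genes tested. A call needed an adjusted p below 0.05 and, except for interactions, an absolute log2 fold change beyond 1. Standard errors were derived from the F statistic. The fits were tested on simulated counts. DESeq2 1.42.0, other scaling, filters, own-strand counts, a replicate block and leaving out each library were alternatives.

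Members with a mean of at least 1 CPM in a group, and members called in a comparison, were named with their values; genes of the pathway lists were named when they reached 1 CPM and were called in at least 2 treatment comparisons. The members and lists were chosen with earlier results of these data known. Low-count intervals are exact at 95%. RefSeq promoters were matched by symbol. The values of 1 member of low count are not reported here.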

Additional observations from a re-analysis of the deposited data

Results flagged for a closer look

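Each value here is a difference between the mocetinostat responses of 2 groups on the log2 scale that had an adjusted p below 0.05 in its own interaction test (edgeR quasi-likelihood). Between genotypes, the ID3-KO response minus the WT response was 1.07 for CX3CL1, 0.86 for CCL26 and 1.84 for CCL24 in AID-DIvA. In U2OS it was 1.46 for CX3CL1, 1.18 for CCL2, 2.42 for CXCL14 and -0.80 for ACKR3.

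Between lines, the AID-DIvA response after recovery minus the U2OS response was positive in WT for CCL4 (1.96), ACKR3 (1.77), XCL2 (1.75), CCL2 (1.33), XCL1 (1.05) and CXCL14 (0.58). It was negative in WT for CCR4 (-5.04), CXCL11 (-2.93), CXCL12 (-2.72), CXCR2 (-2.38), CCR7 (-1.75), CCL20 (-1.65), CCL28 (-1.44), CXCL16 (-1.09), CXCL3 (-0.96), CX3CL1 (-0.95) and CCL24 (-0.83). In ID3-KO it was positive for CCL4 (2.61), CCL5 (2.26), ACKR3 (1.86), XCL1 (0.97), CCL2 (0.81) and CCL26 (0.66). It was negative in ID3-KO for CCL7 (-4.05), CXCL12 (-2.82), CCL20 (-1.63), CX3CL1 (-1.35), CXCL14 (-1.24), CXCL3 (-1.11) and CXCL16 (-0.82). The CCL7 value rests on 1 count in recovered ID3-KO AID-DIvA and was -3.09 (adjusted p = 0.118) without untreated replicate 1. The value of CCR4 rests on at most 4 counts a group in AID-DIvA. Line and collection stage cannot be told apart in these values. With 42.2% of all genes called in WT and 52.5% in ID3-KO, a call between lines was common.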

How the results depend on the processing

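No called value turned its direction under any alternative, while some values that were never called did, among them CCL5 in WT U2OS without untreated replicate 1. A filter of at least 10 counts in every library left fewer genes to test and lowered the calls from 11 to 7 in WT AID-DIvA, 11 to 7 in ID3-KO AID-DIvA, 17 to 8 in WT U2OS and 14 to 6 in ID3-KO U2OS. Members tested and shares of all genes called were not counted under this or the other alternatives, apart from the adjusted p alone. Lost calls and members no longer tested therefore cannot be told apart, and these counts of calls have no baseline. In untreated AID-DIvA the 2 calls became 4 without a filter and 9 by the adjusted p alone. The 3 genotype interactions in AID-DIvA became 5 with DESeq2 and 5 without a filter. The count by the adjusted p alone differs from the main one only in leaving out the fold threshold. The cause of the changes without a filter and with DESeq2 was not tested.

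Leaving out 1 library gave 10 to 11 calls in WT AID-DIvA, 8 to 11 in ID3-KO AID-DIvA, 12 to 16 in WT U2OS and 13 to 17 in ID3-KO U2OS. It gave 1 to 4 in untreated AID-DIvA (1 without ID3-KO replicate 2, 4 without ID3-KO replicate 1 or 3), 4 to 5 in untreated U2OS, 3 to 5 for the AID-DIvA interaction (5 without recovered WT replicate 1) and 4 to 5 for the U2OS interaction. Between lines it gave 14 to 19 in WT and 11 to 14 in ID3-KO. The replicate numbers did not pair the samples, with deviations correlated at -0.35 to 0.24, and the fit with the replicate block gave 10, 11, 14 and 14 treatment calls in the same order, 2 and 4 untreated, 3 and 4 genotype and 16 and 13 line differences. On own-strand counts the treatment calls were 10, 11, 16 and 15. Members too low for the count filter have no test.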
